A study of Mus musculus with 2 samples.

Results

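Semaphorins, ephrins and Slits are cues that steer growing axons and migrating neurons, and each class has its own receptors. The set examined here comprised every gene with a protein-coding transcript whose symbol begins with Sema, Plxn, Epha, Ephb, Efna or Efnb, the numbered Slit and Robo genes, and Nrp1 and Nrp2. This gave 60 of the 55536 annotated genes and of the 22015 nuclear protein-coding genes among them. Of these, 31 encode ligands (20 semaphorins, 8 ephrins and 3 Slits) and 29 encode receptors (9 plexins, 2 neuropilins, 14 Eph receptors and 4 Robos).

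The RNA came from the left cerebral cortex of female B6CASTF1/J mice, a hybrid strain, aged 25 days. There were 2 libraries, biological replicates 1 and 2, each prepared from 300 ng of total RNA with ERCC spike-ins (synthetic RNAs of known amount), and the labels name no treatment. The tissues carry separate animal numbers, yet the labels cite a shared donor identifier, so the spread between them may be technical. With 1 group of 2 libraries no condition can be compared: an exact sign-flip test over 2 libraries cannot go below p = 0.5, and no test is given. Values are in TPM, the share of a transcript among all transcripts of a library, which corrects for length and so allows genes to be compared with one another. Means are given ± SD over both libraries (n = 2).

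Semaphorins act through plexins, and most secreted class 3 semaphorins need a neuropilin as co-receptor. Ephrin-A ligands are held to the membrane by a lipid anchor and ephrin-B ligands span it; they bind mainly EphA and EphB receptor tyrosine kinases, respectively, and can signal back into the cell that carries them. Slits are large secreted proteins read by Robo receptors. In the cortex these systems guide axon tracts before birth and are also known to act at synapses and dendritic spines in postnatal life.

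The libraries held 31301126 and 27182336 expected counts (reads assigned by a statistical model) over all entries, of which spike-ins took 0.350% and 0.378%. Markers of cortical projection neurons matched the labelled tissue: all 5 of 5 listed genes were detected, and Slc17a7, the vesicular glutamate transporter, stood at 596 and 639 TPM. The libraries differed in markers of neighbouring tissue and of myelin. The 7 striatal markers summed to 451 TPM in replicate 1 and 310 in replicate 2. Ttr, the choroid plexus transthyretin, had 96.0 and 4.79 TPM, while the other 3 choroid plexus and ependymal markers summed to 5.55 and 4.31. The 7 markers of myelinating oligodendrocytes went the other way, at 1433 and 2254 TPM. In bulk tissue, a smaller number of cells of a type and less RNA per cell cannot be told apart.

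For 3 of the genes, the annotated transcripts give proteins that differ in a defined stretch, and the reads were divided between them. The coding sequences around those points are printed 5′ to 3′ from GENCODE M21 (build mm10), in the sense of the gene. In Epha7, a receptor for ephrin-A ligands, short coding transcripts part from the full-length one from coding base 1799 on, and the capitals mark the bases from that point. For both short forms they run to the stop codon; of the full-length form the first 60 bases are shown. Truncated EphA7 receptors without the kinase domain are known.
Epha7-201 (full length, chr4:28947528-28947587, plus strand): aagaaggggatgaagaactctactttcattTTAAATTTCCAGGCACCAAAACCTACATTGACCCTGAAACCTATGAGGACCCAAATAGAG
Epha7-202 (short, chr4:28946219-28946253, plus strand): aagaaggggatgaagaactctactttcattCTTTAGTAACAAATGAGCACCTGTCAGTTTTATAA
Epha7-204 (short, chr4:28966523-28966605, plus strand): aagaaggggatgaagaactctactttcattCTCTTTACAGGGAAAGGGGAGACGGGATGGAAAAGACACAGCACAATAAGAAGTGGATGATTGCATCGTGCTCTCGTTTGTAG
The short forms thus add 35 and 83 coding bases of their own, stop codon included.

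Efna5 encodes ephrin-A5, one of the ligands of EphA receptors, and its shorter transcript skips a coding exon of 81 bases, shown in capitals. The shorter transcript is printed over the same stretch, without capitals, because it joins the flanking exons directly.
Efna5-201 (exon at chr17:62613316-62613396, minus strand): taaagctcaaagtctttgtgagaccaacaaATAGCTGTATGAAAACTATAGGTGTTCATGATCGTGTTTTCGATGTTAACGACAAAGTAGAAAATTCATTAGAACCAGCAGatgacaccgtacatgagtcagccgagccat
Efna5-202 (exon skipped): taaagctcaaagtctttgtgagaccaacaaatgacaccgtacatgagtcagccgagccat
In Nrp2, which encodes a co-receptor of class 3 semaphorins, transcripts end in one of 2 coding tails, known as A and B, that part at coding base 2426. The capitals mark the first 90 bases of each tail and, for the last transcript, a 51-base insert in front of tail A.
Nrp2-205 (tail B, chr1:62795709-62795798, plus strand): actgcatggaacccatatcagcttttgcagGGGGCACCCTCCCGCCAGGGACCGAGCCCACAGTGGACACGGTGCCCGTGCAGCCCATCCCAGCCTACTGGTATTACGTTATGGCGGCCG
Nrp2-204 (tail A, chr1:62815333-62815422, plus strand): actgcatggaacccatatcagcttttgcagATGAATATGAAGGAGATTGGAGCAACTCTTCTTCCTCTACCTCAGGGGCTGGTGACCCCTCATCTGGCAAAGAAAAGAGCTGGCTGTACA
Nrp2-202 (tail A with insert, chr1:62812534-62812584, plus strand): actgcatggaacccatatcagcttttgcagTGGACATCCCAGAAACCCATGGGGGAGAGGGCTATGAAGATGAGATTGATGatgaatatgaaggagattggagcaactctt
All of these stretches lie in annotated coding exons, and the share of each transcript is given with the isoforms further on.

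Nearly all of the guidance genes were expressed in the juvenile cortex. A gene was called detected when neither library fell below 1 TPM: 57 of the 60 genes were, against 58.7% of all nuclear protein-coding genes. Among ligands 30 of 31 and among receptors 27 of 29 reached this level. The exceptions were Efna4, with 0.160 and 0.110 TPM from 5 and 3 counts, Epha1, with 0.090 and 0.10 TPM from 6 and 3 counts, and Epha2, with 0.540 and 0.560 TPM. Epha1 shares 6.01% of its exon bases with Zyx on the opposite strand, which had 951 and 889 counts, so its few counts are uncertain where counting ignored strand. Most of the set lay at middling levels: 30 of 60 stood above the median of detected protein-coding genes (15.6 and 16.4 TPM), and 1 was in their top 10%. The order of the 57 detected members was alike in both libraries (Spearman correlation 0.984 across genes, which are not independent replicates).

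**Figure D1:**
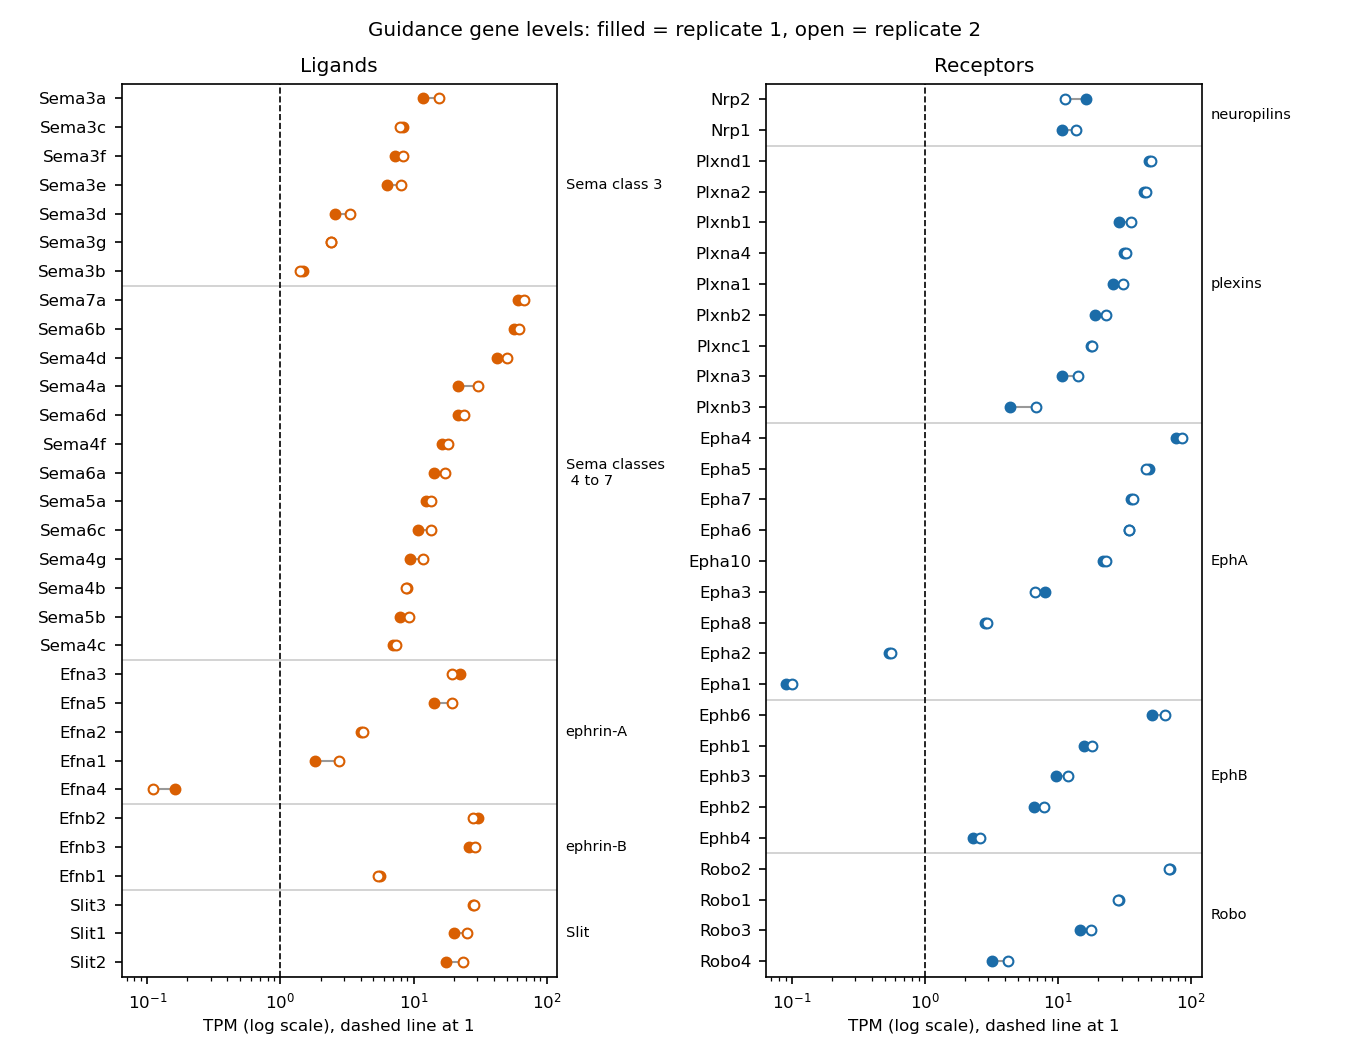
Level of each of the 60 genes in TPM (log axis), ligands on the left and receptors on the right, grouped by family and sorted by mean; filled points are replicate 1, open points replicate 2, and the dashed line marks 1 TPM. Efna4, Epha2 and Epha1 lie left of the line, and Epha4, at 77.2 and 85.0 TPM, is the highest member.

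Among the ligands, membrane-bound semaphorins were the most abundant. Sema7a, the lipid-anchored semaphorin that binds plexin C1 and integrins (chr9:57940112-57962865), had 60.8 and 68.0 TPM in replicates 1 and 2 (mean 64.4 ± 5.13). Sema6b, a transmembrane semaphorin that binds class A plexins (chr17:56123085-56140343), had 57.0 and 61.7 TPM. Sema4d, a ligand of class B plexins, followed with 42.4 and 50.2 TPM. These 3 genes were high in both libraries, and the remaining 10 semaphorins of classes 4 to 7 lay lower, down to Sema4c with 7.0 and 7.35 TPM. All 13 were detected, with a family median at the percentile 49.5 of detected protein-coding genes. The Sema4d level rested in part on Sema4d-204, a transcript of 1249 bases with an incomplete coding sequence of 555. It was the leading transcript of the gene in both libraries, at 41.8% and 43.6% of Sema4d TPM. Coding forms of full or nearly full length held 40.6% and 40.0%.

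The secreted class 3 semaphorins were lower. Sema3a, the classical collapse-inducing cue that acts through neuropilin 1, had 11.8 and 15.5 TPM from 1333 and 1093 counts, the highest TPM of the 7. Sema3a-205, a transcript of 312 bases with an incomplete coding sequence of 186, held 0% of this TPM in replicate 1 and 26.1% in replicate 2. Sema3c had 8.30 and 7.93 TPM and Sema3f, a ligand of neuropilin 2, 7.25 and 8.28 TPM. The ranges of Sema3c and Sema3f overlapped, so their order is not resolved, and Sema3a lay above both. Sema3b was the lowest, at 1.49 and 1.41 TPM, and the family median stood at percentile 27.0 of detected protein-coding genes. Summed over the family, class 3 semaphorins gave 40.1 and 46.8 TPM and the other 13 semaphorins 290 and 334 TPM.

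Ephrins differed more between members than between libraries. Efnb2 had 30.3 and 28.2 TPM and Efnb3 26.3 and 29.1 TPM, overlapping ranges, while Efnb1 had 5.58 and 5.38 TPM. Of the lipid-anchored ephrins, Efna3 had 22.4 and 19.6 TPM and Efna5 14.3 and 19.5 TPM. The others were far lower: Efna2 had 4.00 and 4.17 TPM, Efna1 1.81 and 2.77 TPM, and Efna4 was below the detection level. Together the 5 ephrin-A genes summed to 42.7 and 46.1 TPM and the 3 ephrin-B genes to 62.3 and 62.8 TPM.

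The Slit genes lay close together. Slit3 had 28.0 and 28.3 TPM, Slit1 20.3 and 25.2 TPM and Slit2 17.5 and 23.7 TPM. Slit3 was above both others in each library, and the ranges of Slit1 and Slit2 overlapped.

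On the receptor side, Epha4 was the most abundant gene of the whole set. Epha4, which binds both classes of ephrin and is known for roles in axon tracts and dendritic spines (ENSMUSG00000026235.14, chr1:77367185-77515088), had 77.2 and 85.0 TPM (mean 81.1 ± 5.51). Epha5 had 48.5 and 45.6 TPM and Epha7 35.6 and 36.3 TPM, both receptors for ephrin-A ligands. The family then ran down through Epha6 with 34.2 and 34.3 TPM, Epha10, which lacks an active kinase, with 21.7 and 22.8 TPM, and Epha3 with 7.95 and 6.69 TPM. Epha8 had 2.85 and 2.93 TPM, and Epha2 and Epha1 were not detected. Epha4 alone held 35.0% of the summed EphA level.

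A single member dominated the EphB receptors. Ephb6, whose kinase domain is inactive (chr6:41605482-41620509), had 51.1 and 64.2 TPM, which was 60.8% of the family sum. Ephb1 had 15.7 and 17.9 TPM, Ephb3 9.61 and 11.9 TPM, Ephb2 6.62 and 7.82 TPM and Ephb4 2.28 and 2.59 TPM. The 5 receptors kept this order in both libraries without overlap.

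Plexins, the signalling receptors for semaphorins, were expressed as a broad family, with all 9 detected. Plxnd1, the receptor for Sema3e (chr6:115954811-115995005), had 48.2 and 50.3 TPM and Plxna2, which pairs with neuropilins and binds class 6 semaphorins, 44.4 and 45.6 TPM. Plxnb1 had 28.9 and 35.2 TPM, Plxna4 31.3 and 32.3 TPM and Plxna1 25.9 and 30.9 TPM, and the range of Plxnb1 overlapped those of both others. Plxnb3 was the lowest with 4.38 and 6.78 TPM. Of the neuropilins, Nrp2 had 16.1 TPM in replicate 1 and 11.3 in replicate 2, and Nrp1 10.7 and 13.6 TPM, so their order turned round between the libraries.

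Robo2 was the leading Slit receptor and the second most abundant gene of the set (chr16:73891839-74411825), with 69.5 and 68.5 TPM. Robo1 had 28.9 and 28.2 TPM. Robo3, known for its part in midline crossing, had 14.6 and 17.7 TPM, and Robo4, a vascular member, 3.17 and 4.23 TPM. The 4 Robo genes did not overlap. The 5 endothelial markers measured beside Robo4 had a median of 16.2 TPM and summed to 69.2 and 78.1 TPM.

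Receptor genes as a group lay somewhat above ligand genes. The median receptor had 17.8 and 18.1 TPM and the median ligand 11.8 and 13.6 TPM. The difference of the medians of log2(TPM + 1), receptors minus ligands, was 0.56 in replicate 1 and 0.38 in replicate 2 (mean 0.47 ± 0.12). Of the 10 most abundant members 7 were receptors, and 17 of 29 receptors against 13 of 31 ligands stood above the median of detected protein-coding genes. The difference was 0.61 over detected members only, and 0.81 in CPM (counts relative to library size, scaled with edgeR's TMM factors), which do not correct for the long transcripts of many receptors.

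The balance differed from one signalling system to the next. Sums and ratios, here and for the pairs below, use the level of the whole gene, over all its transcripts, coding or not. EphA receptors summed to 229 and 234 TPM, which was 5.36 and 5.07 times the sum of ephrin-A ligands. In CPM, without length correction, the EphA ratios were 9.53 and 8.48. EphB receptors summed to 1.37 and 1.66 times the ephrin-B ligands, and Robo receptors to 1.77 and 1.54 times the Slits. Semaphorins were the exception: plexins and neuropilins together reached 257 and 281 TPM, only 0.779 and 0.739 of the semaphorin sum of 330 and 380 TPM. This last direction depended on length correction, since in CPM the receptors came to 1.54 and 1.42 times the semaphorins. For the other 3 systems the receptor sum was higher in TPM, in CPM and in the FASTQ-based quantification, a second set of deposited values. The EphB sum rested largely on 1 gene, Ephb6, which held 60.8% of it in TPM. In CPM, Ephb6 had 90.8 and 118 of a family sum of 189 and 226.

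**Figure D2:**
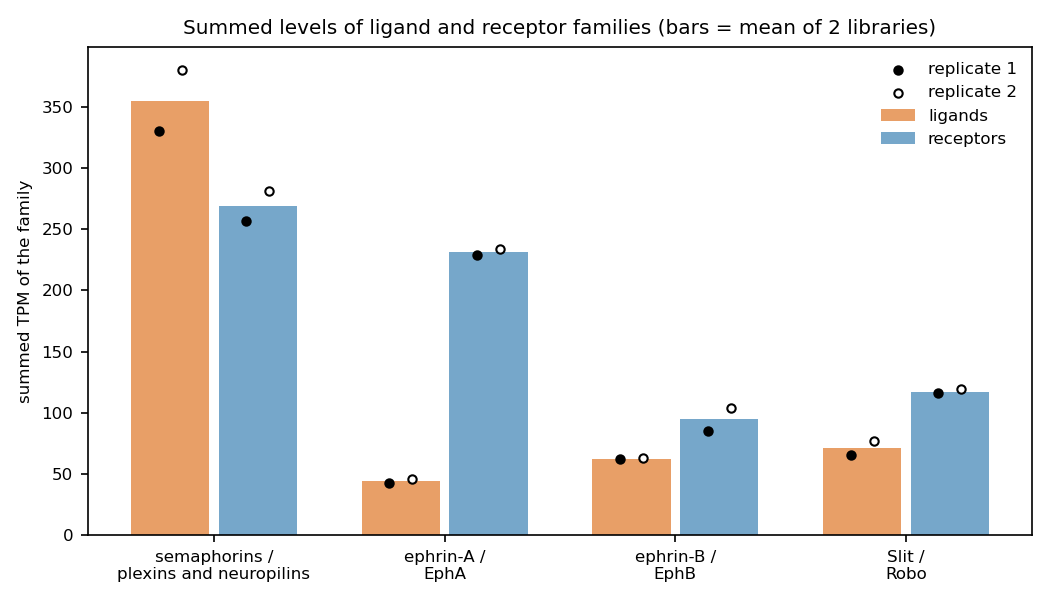
Summed TPM of ligand families (orange) and receptor families (blue) in 4 signalling systems; bars are means of 2 libraries, filled and open points are replicates 1 and 2. EphA receptors stand about 5 times above ephrin-A ligands (5.36 and 5.07), and semaphorins are the only ligands above their receptors in TPM, an order that turns round in CPM (receptors 1.54 and 1.42 times the ligands).

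Pairs of ligand and receptor that are known to bind showed the same range of balances. Of 16 pairs compared within each library, 8 differed at least 2-fold in the same direction in both, 6 with the receptor higher and 2 with the ligand higher. The direction was shared by both libraries in 15 pairs. The exception was Sema5a and Plxna3, at 12.5 and 13.6 against 10.7 and 14.2 TPM, whose log2 ratio was 0.23 and -0.06. Transcripts not annotated as protein coding held a mean of 31.0% of Sema5a TPM and 57.2% of Plxna3 TPM.

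In TPM, receptor excess was largest for Sema3e and Plxnd1, and in CPM for Efna3 and Epha4 (log2 ratio -3.25 against -2.45). Sema3e had 6.30 and 8.04 TPM, and its receptor was 6.92-fold higher (log2 ratio of ligand over receptor -2.94 and -2.64). Epha4 exceeded Efna3 by 3.87-fold and Efnb3 by 2.92-fold. Robo2 exceeded Slit1 by 3.05-fold, Plxnb2 (18.9 and 22.8 TPM) exceeded Sema4c by 2.90-fold, and Epha5 exceeded Efna5 by 2.81-fold. Part of the receptor level came from non-coding or incomplete transcripts. Those not annotated as protein coding held a mean of 34.3% of Epha5 TPM and 0% of Efna5 TPM. Coding forms of full or nearly full length held 42.3% of Robo2 TPM and 88.1% of Slit1 TPM. For Epha5 and Efna5 the shares of such forms were 19.7% and 77.1%, and shorter complete coding forms held 46.1% and 22.9%. The 3.05-fold and 2.81-fold gaps therefore describe whole-gene levels and cannot be carried over to coding forms. Whether they reach 2-fold over coding forms alone was not tested. For Sema4c and Plxnb2 the FASTQ-based quantification gave a smaller gap, with a log2 ratio of -0.60 against -1.54.

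Ligand excess was found for Efnb2 and Sema7a. Efnb2 was 12-fold above Ephb4, with log2 ratios of 3.73 and 3.45; in vessels this pair separates arterial from venous endothelium, and Efnb2 is also a ligand of other EphB receptors. Sema7a was 3.58-fold above Plxnc1 (17.8 and 18.1 TPM), with log2 ratios of 1.77 and 1.91. In CPM the Sema7a excess was smaller, at a log2 ratio of 0.83.

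The other 8 pairs were within 2-fold in at least 1 library. Plxna4 exceeded Sema6a (14.2 and 17.2 TPM) by 2.03-fold on average but by less than 2-fold in replicate 2, and Nrp2 exceeded Sema3f by 1.74-fold. Robo1 was 1.4-fold above Slit2 and Plxna1 1.25-fold above Sema6d (21.5 and 23.9 TPM). In the remaining pairs the ligand was slightly higher on average: Efnb3 over Ephb1 by 1.65-fold, Sema4d over Plxnb1 by 1.45-fold, Sema3a over Nrp1 by 1.12-fold and Sema5a over Plxna3 by 1.06-fold. For Sema4d and Plxnb1 the log2 ratio was 0.53 in TPM but -0.71 in CPM, so the higher partner depended on length correction. Coding forms of full or nearly full length held a mean of 40.3% of Sema4d TPM and 62.4% of Plxnb1 TPM. Incomplete shorter coding forms held a mean of 42.7% of Sema4d TPM and 23.7% of Plxnb1 TPM. The 1.45-fold ligand excess therefore describes whole-gene levels only, and the ratio was not computed over full-length forms alone.

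**Figure D3:**
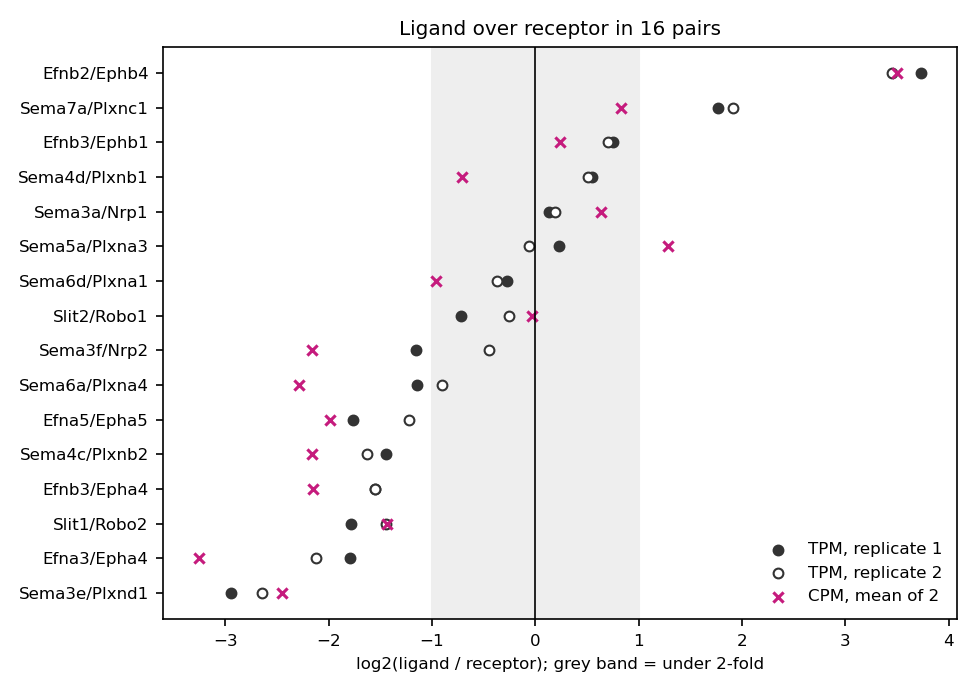
Log2 ratio of ligand over receptor for 16 binding pairs in TPM (filled, replicate 1; open, replicate 2) and as the mean in CPM without length correction (crosses); the grey band marks differences under 2-fold. Efnb2/Ephb4 is farthest to the right (3.73 and 3.45) and Sema3e/Plxnd1 farthest to the left in TPM (-2.94 and -2.64).

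The 2 libraries were close for most of the set. Of 55 members with a mean CPM of at least 5, none was at least 1.5-fold higher in replicate 2 and 1 was at least 1.5-fold higher in replicate 1, against 0.451% and 0.766% of all 11095 nuclear protein-coding genes tested. At 2-fold, 0 members passed in either direction, against 0.0451% of genes in replicate 2 and 0.180% in replicate 1. No p-value is attached to these counts, because they rest on a rule of size. The exact 95% interval of the count ratio, which covers counting error only, excluded 1 for 15 of the 55 members in the direction of replicate 2 and for 14 in that of replicate 1. Among all genes tested these shares were 12.3% and 24.2%.

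The member past the rule was Nrp2. It had 1996 and 1174 counts and was 1.51-fold higher in replicate 1 in CPM (95% interval 1.41 to 1.63, counting error only). The ratio was 1.52 with DESeq2 size factors and 1.52 in the FASTQ-based quantification, but 1.48 with library totals and 1.42 in TPM, so the call was lost in the last pair of scalings. Both coding tails were lower in replicate 2: tail A had 29.7 and 19.1 CPM and tail B 32.2 and 21.6 CPM, ratios of 1.55 and 1.49. Beside it, 6 of 6 markers of inhibitory neurons were higher in replicate 1 in CPM (summed level 536 and 478 TPM). Their ratios ran from 1.08 for Sst to 1.52 for Gad2. Also higher in replicate 1 were 7 of 7 striatal markers and 4 of 4 choroid plexus and ependymal markers. Only 1 of the latter 4 reached a mean CPM of 5. As background, 39.0% of all protein-coding genes tested were higher in replicate 2 in CPM, so most leaned to replicate 1. The part of these markers in the Nrp2 difference was not tested. Nrp1 did not follow Nrp2 and was 1.17-fold higher in replicate 2.

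The largest difference in the other direction among tested members was that of Plxnb3, a receptor for Sema5a. It had 528 and 683 counts and was 1.45-fold higher in replicate 2 (95% interval 1.29 to 1.63), or 1.55-fold in TPM, where it passes the 1.5-fold size. Beside it, 7 of 7 markers of myelinating oligodendrocytes were also above replicate 1 (median log2 difference 0.51). So were 5 of 5 markers of excitatory neurons (0.20). The part of these markers in the Plxnb3 difference was not tested. As families, all 5 EphB receptors were higher in replicate 2 in CPM, led by Ephb6 with 1.30-fold (1.24 to 1.37), and this held with DESeq2 size factors, library totals, TPM and FASTQ-based TPM. Of all protein-coding genes tested, 39.0% were higher in replicate 2 in CPM, 36.5% with DESeq2 size factors, 50.2% with library totals, 64.1% in TPM and 54.0% in FASTQ-based TPM, so each direction count has a background of its own. Of the 13 semaphorins of classes 4 to 7, 12 were higher in replicate 2 in CPM and in TPM and 10 in FASTQ-based TPM. The direction of EphA receptors turned with the scale, with 2 of 9 higher in replicate 2 in CPM and 7 of 9 in TPM.

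**Figure D4:**
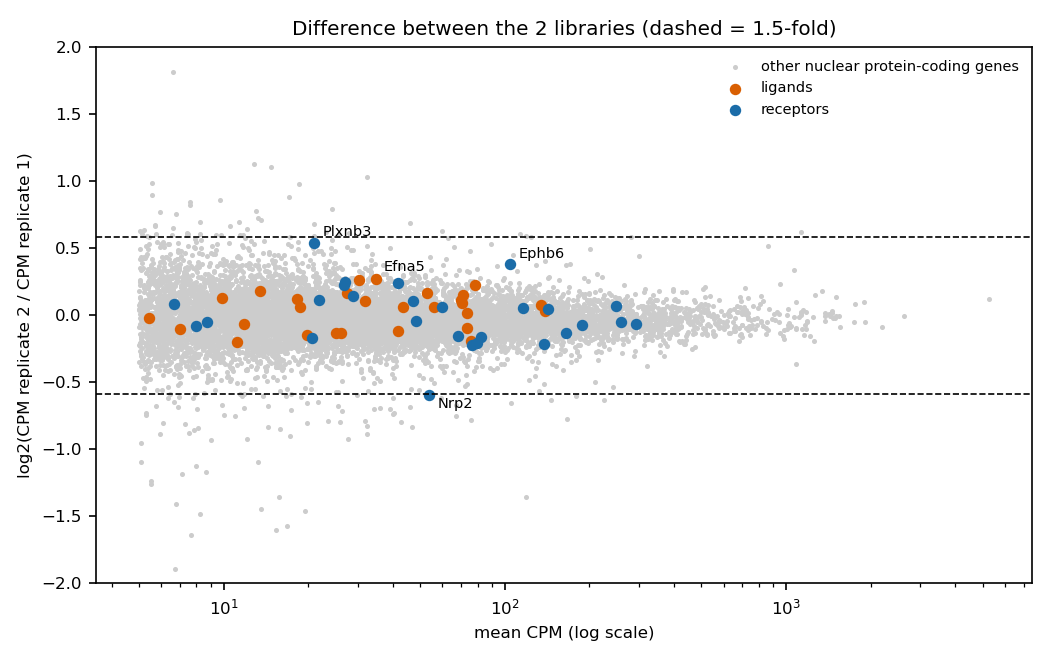
Log2 ratio of CPM in replicate 2 over replicate 1 against mean CPM (log axis) for nuclear protein-coding genes with a mean CPM of at least 5 (grey; 4 genes lie outside the plotted range), with ligands in orange and receptors in blue; dashed lines mark 1.5-fold. Nrp2 lies at the lower line (1.51-fold higher in replicate 1) and Plxnb3 just under the upper one (1.45-fold higher in replicate 2).

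Many members were read as several transcripts. Of 53 detected members with more than 1 annotated transcript, 48 had the same leading transcript in both libraries (90.6%, against 88.0% of such protein-coding genes). The same transcript led in both libraries and both quantifications for 40 (75.5%, against 64.2%). The leader kept 50% or more of the gene's TPM for 32 genes, library by library (60.4%, against 63.0%). These shares are near those of protein-coding genes in general. Among the abundant members, Plxna4-201 held 96.9 ± 0.445% of Plxna4 TPM (96.0 ± 0.342% in the FASTQ-based values). Sema6b-201 held 90.3 ± 0.552% of Sema6b TPM in the alignment-based values but 58.6 ± 0.795% in the FASTQ-based ones, where Sema6b-202 took the rest.

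Epha7 was divided between receptor forms. Epha7-202 held 31.9% and 33.9% of Epha7 TPM and Epha7-204 25.9% and 20.7%, both ending at the short coding tails printed above. Full-length Epha7-201 held 23.2% and 18.4% and Epha7-203, of nearly the same coding length, 6.43% and 7.48%. Together the short complete forms made up 56.2 ± 2.20% of the TPM and the full-length forms 27.7 ± 2.69%. By FASTQ-based TPM the short forms held 50.3% and 49.9%, and by expected counts, which favour long transcripts, 41.1 ± 0.889% against 52.5 ± 2.53% for full length. Epha7 was the only one of the 53 members in which complete coding transcripts under 90% of the longest coding length made up 50% or more of TPM whichever library was read, which was the case for 4.81% of the 11708 protein-coding genes examined.

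Epha5 was spread over many forms. In the alignment-based values its leader in both libraries was Epha5-207, an annotated retained intron with no coding sequence, at 19.8 ± 0.599%. The coding Epha5-201 followed at 17.9 ± 0.809% and Epha5-202 at 14.5 ± 0.742%. Coding forms of at least 90% of the longest coding length held 19.7 ± 2.41% and shorter complete ones, which have 2457 to 2682 of 3120 coding bases, 46.1 ± 0.639%. In the FASTQ-based values the coding Epha5-204 led in replicate 1 at 23.6% and Epha5-207 in replicate 2 at 18.1%. Sema3b was the other detected member led in both libraries, in the alignment-based values, by a transcript not annotated as protein coding. This was Sema3b-206, a target of nonsense-mediated decay, at 45.0% and 54.6% of a gene with 86 and 67 counts. In the FASTQ-based values coding forms led Sema3b, Sema3b-203 at 31.1% in replicate 1 and Sema3b-202 at 46.7% in replicate 2.

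For Efna5, the form with the 81-base exon held 80.0% and 74.3%, and the form without it the remaining 22.9 ± 4.02%. FASTQ-based TPM gave 21.2 ± 0.645% for the latter. The annotated Efna5-202 is 643 bases long and Efna5-201 4032, so far fewer reads bear on the shorter form. Nrp2 transcripts with tail B held 48 ± 0.0919% of TPM and those with tail A 41.5 ± 0.764%. Nrp2-205 led with 42.7% and 43.9%, Nrp2-204 had 27.4% and 26.8%, and the form with the 51-base insert, Nrp2-202, 11.4% and 14.1%. The ratio of the tails was thus nearly the same in both libraries, although the gene's level was not.

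**Figure D5:**
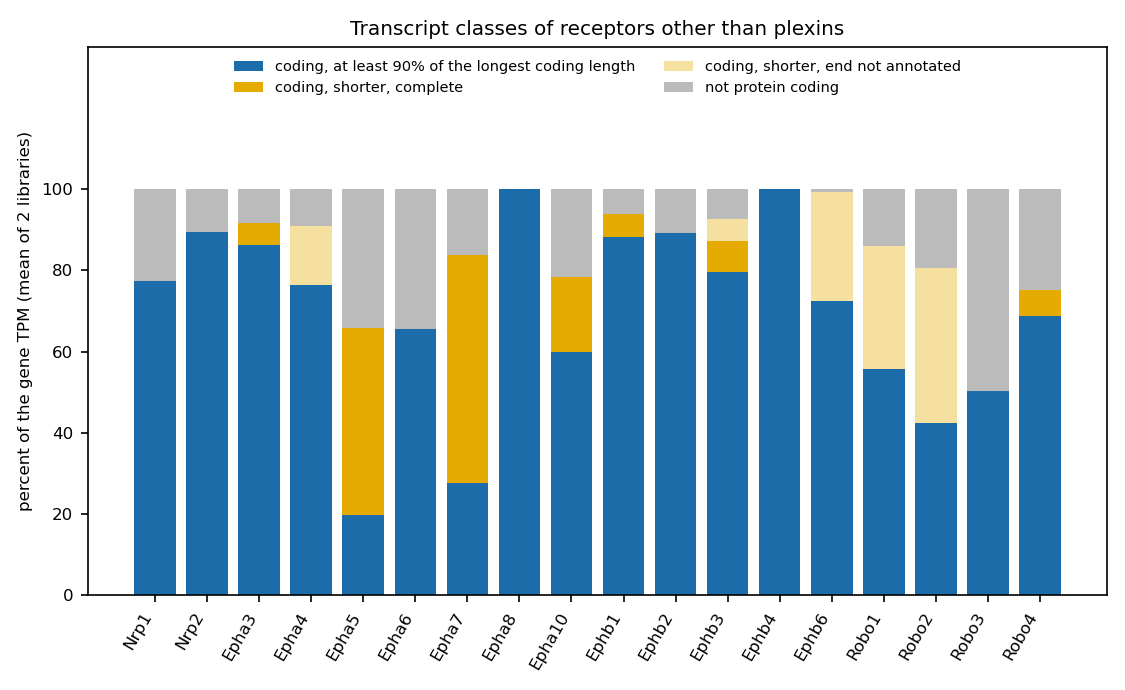
Percent of gene TPM (mean of 2 libraries) in 4 classes of transcript for the detected neuropilin, Eph and Robo receptors: coding with at least 90% of the longest coding length, shorter complete coding, shorter coding with an end not annotated, and not protein coding. Epha7 has the largest yellow share (56.2%), ahead of Epha5 (46.1%).

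Leading transcripts that changed with the library or the quantification belonged mostly to genes with many annotated forms. Between the libraries the alignment-based leader changed for Robo1, Robo4, Sema4a, Sema4b and Sema4c. In Robo1 the change was between forms of near-equal share, Robo1-206 with 31.8% and 30.7% and Robo1-205 with 29.9% and 30.8%. The forms themselves are unlike. Robo1-206 has 6601 bases, 4865 of them coding, and Robo1-205 has 546 bases with an incomplete coding sequence of 401. In Sema4b it was larger, from Sema4b-201 with 46.8% in replicate 1 to Sema4b-204 with 68.4% in replicate 2. Robo2 was led by Robo2-202 at 24.6 ± 0.422% in the alignment-based values and by Robo2-211, whose annotated coding end is incomplete, at 28.4 ± 1.29% in the FASTQ-based ones. The detected members whose leader differed only between quantifications or within the FASTQ-based values were Efna1, Epha3, Epha5, Ephb4, Robo2, Sema3b, Sema4g and Slit2.

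Gene levels depended little on the quantification. FASTQ-based TPM were higher in general, by a median factor of 1.55 and 1.52 over detected protein-coding genes. After that shift, 57 of 57 detected members were within 1.5-fold of their alignment-based level, and the ranks of the members correlated at 0.990 (Spearman, across genes). Outside the detected members, Epha2 was 5.74 and 8.01 times higher in the FASTQ-based values, where a non-coding form, Epha2-204, led with 75.5% and 82.0%.

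Other parts of the guidance machinery were expressed alongside. Of 18 further ligands and receptors (netrins, their receptors, repulsive guidance molecules and related proteins) 17 were detected, with a median of 16.7 TPM, and 0 of the 17 tested passed the 1.5-fold rule between libraries. Draxin, an antagonist of netrin signalling, was the exception to detection with 0.120 and 0.200 TPM. All 43 intracellular effectors and modulators were detected, with a median of 48.4 TPM, above the medians of both the receptors and the ligands. Chn1, a Rac-regulating chimaerin that acts downstream of Epha4, led with 686 and 679 TPM. Cfl1, the actin-severing protein cofilin, had 643 and 624 TPM, Mical2, an actin-oxidizing enzyme of the family that acts downstream of plexins, 266 and 287 TPM, and Dpysl2, a collapsin response mediator, 272 and 274 TPM. Of 42 effectors tested, 0 passed the 1.5-fold rule in either direction.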

How the data were processed

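Total RNA-seq of 2 libraries of 1 group was analysed. The authors deposited expected counts, TPM and FPKM per gene and, per transcript, TPM and the percent of the gene's expression, all from an alignment-based quantification on mm10 with GENCODE M21, per the file headers and labels. They also deposited estimated counts and TPM per transcript made directly from FASTQ files, summed per gene here. Which aligner and quantifiers were run is not given in the sources used here, nor is the strand setting of the counting. Entries identified by a number alone were left out of library sizes, as were the spike-ins, and hold 6.39e-06% and 1.81e-05% of the expected counts.

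Expected counts (31191535 and 27079700 in annotated genes) were rounded for TMM scaling with edgeR 4.0.16 in R 4.3.3 (limma 3.58.1; DESeq2 1.42.0 size factors as an alternative), which gave CPM. The TMM factors were 0.987 and 1.01. Count ratios carry exact conditional binomial 95% intervals, which cover counting error only. Differences between medians use log2(TPM + 1), which understates those of low genes. Shares of transcripts are the TPM of a transcript over the summed TPM of its gene, unless counts are named. The shares of the Nrp2 tails use the deposited percent. Coding stretches were read from the GENCODE M21 transcripts. Other steps ran in Python 3.11.15 with pandas 2.3.3, numpy 2.4.6 and scipy 1.17.1, and figures in matplotlib 3.10.9; the size rule and its intervals were tested on simulated data.

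Members and lists were chosen with earlier results of these data known. Named by rule were, in each of 10 families, the 3 most abundant members (all in families of 4 or fewer) and the lowest, all pairs, members past the 1.5-fold rule of size, members whose leading transcript changed or was not protein coding, the 4 most abundant pathway genes and the 2 most abundant of each marker list. Other names were chosen after their values were seen. Alternatives were another quantification, scaling, threshold, pseudocount or unit, and leaving out each library.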

Additional observations from a re-analysis of the deposited data

How the results depend on the processing

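No paired analysis was possible because the samples form 1 group. The count of detected members stayed within 1.5 times its value in the 6 alternatives, for ligands and receptors alike, as did the count of pairs at least 2-fold apart in 5 (7 to 10 against 8) and that of leading transcripts with at least 50% in 4 (31 to 42 against 32). Leaving out a library gave a receptor minus ligand difference of 0.38 to 0.56; it was 0.61 over detected members and 0.81 in CPM, without length correction. No member was higher in replicate 2 by the 1.5-fold rule, but 1 was in TPM (Plxnb3). The 1 member higher in replicate 1, Nrp2, became 0 with library totals, 0 at 2-fold and 0 in TPM, and 2 without the filter on low counts, where Epha1 joined with 6 and 3 counts. Of 32 values of single pairs in FASTQ-based TPM or CPM, 14 moved by less than the spread between libraries, 17 by more and 1 changed sign, Sema4d/Plxnb1 in CPM (-0.71 against 0.53). Sign also turned for Sema5a/Plxna3, which ranged from -0.06 to 0.23 on leaving out either library, against 0.08. Members below about 1 TPM rest on few counts, such as the 5 and 3 of Efna4, and their ratios are not resolved at this depth.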

Other observations

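On chromosome 3, Efna1 (89271733 to 89281142), Efna3 (89313899 to 89322965) and Efna4 (89333390 to 89338028) lie in a row, and their mean levels were 2.29, 21 and 0.135 TPM. Efna3 and Efna4 are 10424 bases apart. On chromosome 9, Robo3 and Robo4 are 553 bases apart, and Robo3 was 4.36-fold higher. Robo1 and Robo2 on chromosome 16, separated by 845743 bases, differed 2.41-fold, with Robo2 higher. Some neighbours were closer in level: Efna3 and Sema4a, 852716 bases apart, differed 1.23-fold, and Sema3a and Sema3e 1.90-fold. Others were not, such as Sema3b and Sema3f, which differed 5.36-fold, and Sema3a and Sema3d, 4.63-fold. These neighbours were chosen after their values were seen. Of the 60 members 14 share exon bases with another annotated gene, 7 of them with an annotated antisense gene, such as Gm15998 with 7 and 8 counts beside Efna3, and 2 with another protein-coding gene.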
